A study of Homo sapiens with 6 samples.

Results

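The comparison set parental HCC827 against parental PC-9, a pair of human lung adenocarcinoma lines that had not been selected for resistance. Both carry activating mutations of the epidermal growth factor receptor gene EGFR and respond to tyrosine kinase inhibitors of EGFR. The 2 libraries are 2 of the 6 of the series, which also holds the resistant lines PC-9GR and PC-9ER, derived from PC-9, and HCC827GR and HCC827ER, derived from HCC827. What GR and ER stand for is not spelled out in the labels, and the label HCC82GR is taken as HCC827GR. Cells were grown in RPMI-1640 with serum, and total RNA was sequenced with a stranded kit that removes ribosomal RNA. All genes of the count table that holds both parental lines were compared apart from Y-linked genes and XIST, 16843 in number. Each line is 1 culture with 1 library. Every difference below is therefore a size, without a test, and describes these libraries.

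EGFR is a receptor tyrosine kinase of the ERBB family. Ligands such as amphiregulin and epiregulin make it pair with itself or with another ERBB receptor, and signals then run through RAS and ERK, PI3K and AKT, and STAT3. Lines with activating EGFR mutations depend on this output for growth, so the inhibitors act on them. The Hippo pathway, named in the series' title, is a kinase cascade that keeps the coactivators YAP1 and WWTR1 (TAZ) out of the nucleus.

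The deposited values were expected counts, and levels are in CPM, counts per 1000000 after TMM normalisation. CPM does not correct for gene length, so levels are compared within a gene and not between genes. The total was 16897462 counts in PC-9 and 14529337 in HCC827, and a count of 0 allowed up to 0.172 and 0.198 CPM, which is 3 counts. Where a pair of levels stands without line names, HCC827 comes first, unless the same sentence has already named PC-9 first. Log2 ratios are HCC827 over PC-9 and carry a prior count of 2. Where a line had 0 counts, the fold was computed against 3 counts and is given as "at least". Intervals are 95% intervals of counting error only, since the reads carry no molecular identifiers, and say nothing of repeat cultures. The derived lines are used below as further pairs of libraries, HCC827ER against PC-9ER (the ER pair) and HCC827GR against PC-9GR (the GR pair), which share no library with the parental pair. The library labelled PC-9GR stands apart: across genes its Spearman correlation was 0.831 with PC-9 and 0.865 with HCC827, whereas PC-9ER had 0.97 with PC-9, HCC827GR 0.957 with HCC827 and HCC827ER 0.919 with HCC827. Results that use the GR pair are given beside the ER pair for this reason.

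The parental lines shared most of their transcriptome and differed widely outside it. Of 12859 genes with at least 1 CPM in either library, 7972 (62.0%) lay within 2-fold. HCC827 was at least 2-fold higher in 2412 (18.8%) and at least 2-fold lower in 2475 (19.2%), and the median log2 ratio over the measured genes was 0.016. The shares of 18.8% and 19.2% are the background for every count of list members given below. Differences of at least 8-fold were seen in 628 genes higher in HCC827 (4.88%) and 686 genes lower in HCC827 (5.33%). The Spearman correlation of the parental libraries across 16843 genes was 0.877. The plot of levels in the parental libraries shows the band of shared genes and, along its edges, genes with counts in 1 line and few or none in the other.

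**Figure D1:**
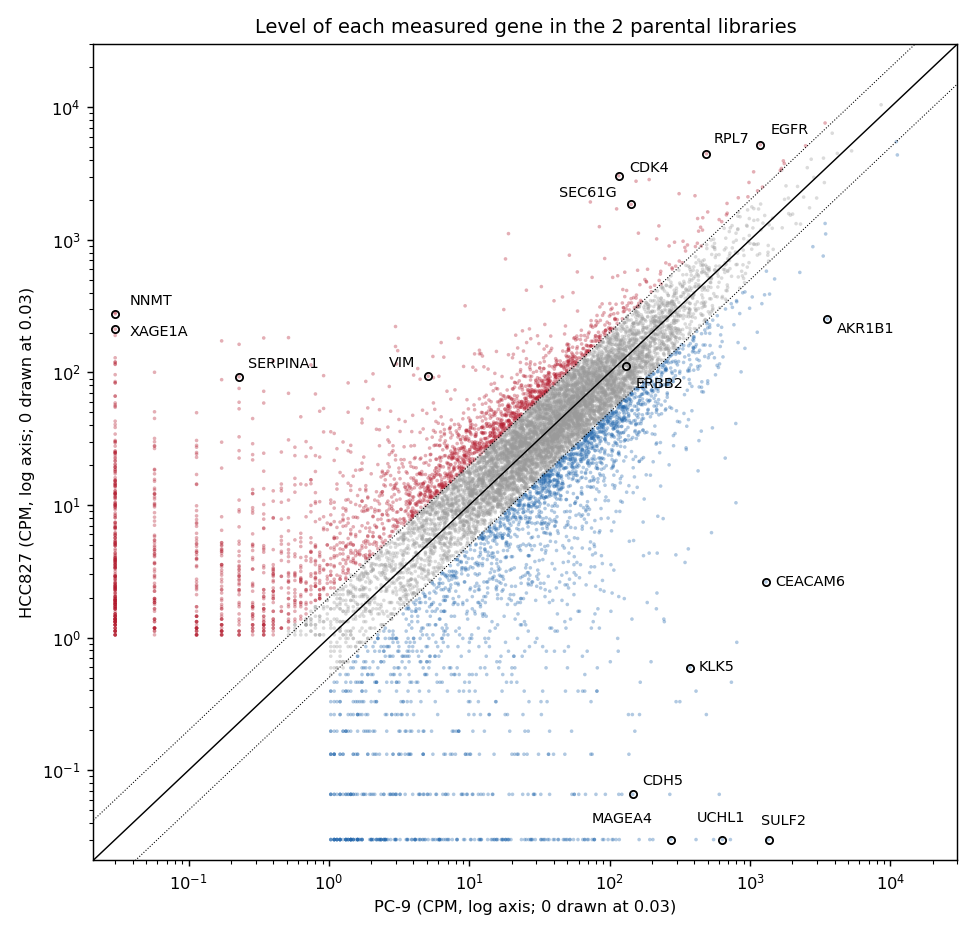
Level in CPM of the 12859 measured genes in PC-9 (horizontal, log axis) and HCC827 (vertical, log axis), 1 library each, with a level of 0 drawn at 0.03; red genes were at least 2-fold higher in HCC827, blue genes at least 2-fold lower, the solid line marks equal levels and the dotted lines 2-fold. EGFR, CDK4 and SEC61G lie above the band at high levels, while NNMT and XAGE1A lie on the left edge with 0 counts in PC-9 and SULF2, UCHL1 and MAGEA4 on the lower edge with 0 counts in HCC827.

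Among 10237 genes that reached 10 CPM in either line, 116 (1.13%) had at least 10 CPM in HCC827 and at most 3 counts in PC-9, and 135 (1.32%) had the converse. Both sets hold close gene copies between which reads can be split, so these are not counts of separate genes. SIK1B had 27.8 CPM in HCC827 and 0 counts in PC-9, while its copy SIK1 had 18.8 CPM in PC-9 and 0 counts in HCC827. The 15 highest ratios among genes with at least 20 CPM included 13 genes with 0 counts in PC-9. NNMT, which methylates nicotinamide, had 277 CPM in HCC827 (at least 1610.4-fold higher). C12orf75 had 283 CPM, FGB, the fibrinogen beta chain made mainly by liver, had 120.0 CPM, and VCAN, the matrix proteoglycan versican, had 119.5 CPM. BICC1, an RNA-binding protein, had 115 CPM, CXCL5, a neutrophil-attracting chemokine, 85.4 CPM, and TFPI, the inhibitor of the tissue factor pathway, 83.6 CPM. These transcripts had no count in PC-9 at this depth. TM4SF18 (190.1 CPM), GALNT5 (96.2 CPM) and DPYSL3 (83.3 CPM) had 0 counts in PC-9 as well. MYH10, a non-muscle myosin heavy chain, had 173 CPM and 3 counts in PC-9, and SFTA2, a surfactant-associated protein, had 100.3 CPM and 1 count in PC-9.

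UBE2M, the enzyme that conjugates NEDD8 to cullins and is used by most dividing cells, had 129 CPM in HCC827 and 0 counts in PC-9. It also had 0 counts in PC-9ER and 108 CPM in the library labelled PC-9GR. MZF1, which starts at 58561931 on chromosome 19 where UBE2M ends at 58558960, had the same pattern. It had 12.8 CPM in HCC827, 0 counts in PC-9 and PC-9ER and 17.1 CPM in the library labelled PC-9GR. How reads of UBE2M were assigned upstream was not stated and copy number was not measured. The part of either in the 0 counts was not tested.

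PC-9 had its own set of genes that HCC827 lacked. SULF2, an endosulfatase that trims heparan sulfate, had 1353 CPM in PC-9 and 0 counts in HCC827 (at least 6854-fold lower in HCC827). MAL, a membrane raft protein, had 724 CPM, UCHL1, a ubiquitin hydrolase of neurons and neuroendocrine cells, 635 CPM, and TIMP3, an inhibitor of matrix metalloproteinases, 549.5 CPM, each with 0 counts in HCC827. ADGRF5, an adhesion receptor of alveolar type II cells, had 412 CPM, SFRP1, a secreted WNT antagonist, 203 CPM, NLRP2 193 CPM, CASP14, the caspase of keratinising epithelium, 162 CPM, PADI4 117 CPM and DMBT1 111 CPM, again with 0 counts in HCC827. A few counts remained for the others. PXDN, a matrix peroxidase, had 603 CPM against 1 count (9164-fold, 1644 to 362007), and LAMA4, a laminin chain, 268 CPM against 1 count. ANPEP, aminopeptidase N, had 736 CPM in PC-9 and 0.461 in HCC827 (1597-fold, 775 to 3974), and QPRT, an enzyme of NAD synthesis, had 488 CPM in PC-9 and 0.263 in HCC827.

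Several housekeeping transcripts were among the most counted in both libraries. GAPDH had 10441 CPM in HCC827 and 8578 in PC-9, ACTB 4688 and 5286, and RPS2 4488 and 4181, all within 2-fold. EGFR and the keratin KRT8 (5125 and 2484 CPM) were among the 8 genes with most counts in HCC827, and FTH1, the ferritin heavy chain (4369 and 11195 CPM), AKR1B1, aldose reductase (253 and 3553 CPM), and HMGA1, a chromatin architectural protein (1108 and 3454 CPM), were among those of PC-9. EEF1A1, a translation elongation factor, had 5504 and 11021 CPM, which lies at the 2-fold boundary and falls under it when libraries are scaled by total counts (log2 ratio of -0.99). MTRNR2L8 and MTRNR2L2, nuclear copies of mitochondrial ribosomal RNA sequence, also ranked among the most counted, and their counts may be shared with the mitochondrial transcript.

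EGFR itself was 4.41-fold higher in HCC827 (4.35 to 4.48), with 5213 CPM against 1181 CPM in PC-9 (gene EGFR, ID 1956, chromosome 7, 55019021 to 55211628, GRCh38). It was lower in every derived library than in its parent, at 464 CPM in PC-9ER, 347 in PC-9GR, 1299 in HCC827ER and 585 in HCC827GR, and the log2 ratio was 1.48 in the ER pair and 0.75 in the GR pair. The other ERBB receptors differed little: ERBB2 had 112 CPM in HCC827 and 131 in PC-9, and ERBB3, which pairs with ERBB2, 78.3 and 117. ERBB4 was at 0 counts in HCC827 and 0.286 CPM in PC-9. So the high receptor level of HCC827 was seen for EGFR and not for its partners.

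The ligands moved in both directions. AREG, amphiregulin, had 146 CPM in HCC827 and 3.09 in PC-9 (47.1-fold, 36.0 to 62.9), and EREG, epiregulin, had 298 and 17.6 (16.9-fold, 15.1 to 19.0). NRG1, neuregulin 1, a ligand of ERBB3 and ERBB4, had 51.0 and 0.859 CPM (59.4-fold, 35.8 to 107), and BTC, betacellulin, 21.5 and 6.24. HBEGF, a heparin-binding ligand, was lower in HCC827, with 18.8 against 82.1 CPM. So was ADAM17, the sheddase that frees several of these ligands (52.1 against 216), and CBL, the ubiquitin ligase that sends EGFR to degradation (23.2 against 68.3). NRG2 had 0 counts in HCC827 and 2.98 CPM in PC-9. TGFA, with 48.7 and 73.6 CPM, lay within 2-fold. In the ER pair the log2 ratio was 0.85 for AREG, 0.39 for EREG and 4.58 for NRG1. In the GR pair AREG (-1.37) and NRG1 (-1.65) were lower in the HCC827 line, with 157 CPM of NRG1 in the library labelled PC-9GR, and EREG was at 1.13. Of the 19 measured members of the ERBB list, 6 were at least 2-fold higher and 5 lower, with a median log2 ratio of -0.22.

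ERK activity induces immediate early transcription factors and also its own brakes. Several of the former were higher in HCC827: EGR1 had 222 CPM in HCC827 and 2.98 in PC-9 (74.5-fold, 56.6 to 99.9), FOS 72.2 and 6.93 (10.4-fold, 8.63 to 12.7), FOSL1 723 and 92.1 (7.85-fold, 7.45 to 8.28) and JUN 287 and 125, while KLF4 (28.6 and 33.8) and MYC (381 and 261) lay within 2-fold. The ERK phosphatases of the list were lower in HCC827: DUSP4 had 29.6 CPM against 229.8, DUSP6 15.2 against 90.7 and DUSP5 36.6 against 172. Among the feedback inhibitors, SPRY1 had 8.95 against 49.5 and SPRY4 17.2 against 84.8, while SPRY2 (12.3 and 11.3), SPRED1 (23.2 and 37.6), SPRED2 (57.1 and 59.6) and SPRED3 (11.3 and 5.95) lay within 2-fold. The PEA3 factors ETV4 (23.1 against 130.3) and ETV5 (33.2 against 74.2) were lower as well, and ETV1 (9.48 and 10.0) was level. EPHA4, an ephrin receptor, had 0.263 CPM in HCC827 and 32.6 in PC-9. The list counted 4 genes higher and 10 lower of 24, with a median of -0.16. In the ER pair DUSP6 (log2 ratio of -3.72) and DUSP4 (-2.0) kept their direction, while ETV4 (0.21) and SPRY4 (-0.06) were level. FOSL1 (1.39) and EGR1 (2.17) also kept their direction there, and FOS was at -0.78. EGR1 and FOS were low in that pair, at 1.19 and 0.632 CPM in HCC827ER and 0.168 and 1.18 CPM in PC-9ER. In the GR pair DUSP6 (-2.87), DUSP4 (-5.97), ETV4 (-2.44), SPRY4 (-2.38), FOS (3.53), EGR1 (6.42) and FOSL1 (4.03) had the parental direction.

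Receptors that can carry growth signals past EGFR differed too. MET, the hepatocyte growth factor receptor, had 589.7 CPM in HCC827 and 158 in PC-9 (3.73-fold, 3.57 to 3.89), and its log2 ratio was -0.39 in the ER pair and 0.83 in the GR pair. FGFR3 had 14.6 and 1.37 CPM, FGFR1 35.2 and 12.3, FGFR4 35.6 and 10.1, and the ligand FGF2 had 22.9 CPM in HCC827 and 2 counts in PC-9 (ratio of 200.1, 55.0 to 1659). MERTK, a TAM receptor, had 20.7 and 4.75 CPM. Its relative AXL went the other way, with 24.2 CPM in HCC827 and 68.5 in PC-9 (2.83-fold lower, 2.51 to 3.19), and so did IGF1R (30.7 and 67.0), INSR (6.98 and 16.6) and the collagen receptor DDR1 (114 and 379). Each FGF receptor that was measured was thus higher in HCC827, and the insulin receptor family was higher in PC-9. The list held 8 higher and 4 lower of 17 measured, with a median of 0.75, where 18.8% and 19.2% of all measured genes were higher and lower. Its median was -0.04 in the ER pair and -0.22 in the GR pair, so the parental shift was seen in neither. TFF3, the trefoil peptide of the series' title, had 0 counts in both parental lines.

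In the Hippo pathway the coactivators themselves went in opposite directions. YAP1 had 113 CPM in HCC827 and 198 in PC-9 (1.76-fold lower, 1.66 to 1.86), and WWTR1 had 217 and 98.3 (2.21-fold higher, 2.09 to 2.35). Of the angiomotins, which hold YAP1 at junctions, a pair was lower in HCC827: AMOT had 1 count against 116 CPM (1769-fold, 317 to 69894) and AMOTL1 28.0 against 285 CPM (10.2-fold, 9.21 to 11.3), while AMOTL2 was level at 121 and 110. The kinases LATS1 (17.1 and 39.0), TAOK1 (44.7 and 124) and TAOK2 (46.1 and 118) were lower. LATS2 (17 and 14.2) and NF2 (62.5 and 75) lay within 2-fold. VGLL1, a TEAD cofactor, had 0.658 CPM in HCC827 and 101 in PC-9, and its relative VGLL3 28.0 and 6.12. FAT4, an atypical cadherin, had 9.55 and 0.286. Components counted 4 higher and 8 lower of 30 (median of -0.57).

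Of the YAP and TAZ target genes, 10 were higher in HCC827 and 2 lower of 22 measured, with a median of 0.79, where 18.8% and 19.2% of all measured genes were higher and lower. CCN1 had 1712 CPM against 112 (15.3-fold, 14.6 to 16), CCN2 29.8 CPM against 3 counts (173-fold, 58.9 to 843), AJUBA 230.1 against 34.5 (6.68-fold, 6.12 to 7.29) and F3, tissue factor, 1016 against 216. ANKRD1 had 11.5 and 5.32 CPM. AXL and DOCK5 (57.3 and 135 CPM) were the targets that were lower. The median was 0.19 in the ER pair and 0.44 in the GR pair.

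Both lines had an epithelial transcriptome. EPCAM had 440.3 CPM in HCC827 and 371 in PC-9, CDH1, E-cadherin, 589.6 and 311, and ESRP1, an epithelial splicing factor, 224 and 256. KRT7 had 4056 and 2725 CPM and KRT18 3943 and 1726, and KRT19 was within 2-fold. Of 33 epithelial genes, 23 lay within 2-fold, with a median of -0.08. Claudins were among those that differed: CLDN2, a pore-forming claudin, had 17.8 CPM in HCC827 and 0 counts in PC-9 (at least 104-fold higher), CLDN3 36.7 and 9.79, and CLDN1 24.4 and 115. The tight junction scaffold TJP3 was also lower in HCC827, at 8.43 against 64.1 CPM.

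Keratins differed in both directions. Of 14 measured keratins, 3 were higher in HCC827 and 6 lower (median of -0.33). The 3 higher were KRT8 and KRT18, keratins of simple epithelia, and KRT16. KRT6B had 34.6 CPM, KRT23 19.2 CPM and KRT5 5.72 CPM in PC-9, each with 0 counts in HCC827. KRT81, a hair keratin, had 363 CPM in PC-9 and 4.67 in HCC827. KRT16, a keratin of stressed stratified epithelium, was higher in HCC827, with 28.3 CPM against 11.4. TRIM29, a basal cell gene, had 93.1 CPM in PC-9 and 1 count in HCC827 (1415-fold, 254 to 55915). The squamous master factor TP63, however, was low in both, with 3.55 CPM in HCC827 and 0.973 in PC-9, and S100A2 was higher in HCC827 (17.3 and 2.58). DSC3 (3.23 and 0.401), SERPINB4 (2.24 and 0.401) and SPRR3 (1.18 and 0.114), all squamous genes at low levels, were also higher in HCC827. The squamous list therefore split, with 5 higher and 4 lower of 10 measured and a median of 1.2 (1.29 with genes at 0 counts set to their bound). Its summed level was lower in HCC827, at 31.5 CPM against 116 in PC-9. The median of the squamous list was -1.17 in the ER pair and 1.65 in the GR pair. Secreted kallikreins of keratinising skin were higher in PC-9: KLK5 had 373 CPM in PC-9 and 0.592 in HCC827 (629.9-fold, 332 to 1378), KLK8 20.3 CPM and 1 count, KLK7 7.56 and 0.132, and KLK6 465 and 71.2.

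Genes of lung lineage and alveolar cells went in both directions, with 6 higher and 5 lower of 15 measured and a median of 0.46. NKX2-1, the lineage factor of lung, had 14.5 CPM in HCC827 and 0.744 in PC-9 (19.5-fold, 11.2 to 37.3), and NAPSA, napsin A, had 27.3 CPM and 2 counts (239-fold, 65.6 to 1977). SFTPC was at 0 counts in both, and SFTPB had 1 count in HCC827 and 2.86 CPM in PC-9. LAMP3, a lamellar body protein, was lower in HCC827 (4.08 and 18.4), and ABCA3, the lipid transporter of lamellar bodies, had 3.29 and 6.07 CPM. The usual diagnostic markers of lung adenocarcinoma, NKX2-1 and NAPSA, were thus close to absent in the PC-9 library. FOXA2, a foregut factor (8.56 and 0.343), was also higher in HCC827. FOXA1 was lower, with 22.6 against 83.5 CPM, and CEACAM6, a glycosylated adhesion molecule of the lung and gut surface, had 2.63 CPM in HCC827 against 1297 in PC-9 (493-fold, 362 to 689.9). In the ER pair NKX2-1 was at 0 counts in HCC827ER and 1.12 CPM in PC-9ER, so its direction was not seen again there, and in the GR pair it had 2.53 CPM in HCC827GR and 0 counts in PC-9GR.

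Secretory products divided the lines. PC-9 had more of the airway gland genes: WFDC2 had 245 CPM in PC-9 against 1.32 in HCC827 (186-fold, 120.3 to 305), MUC4 103 against 6.39, SLPI 107 against 7.44, LCN2 821 against 168, and SPDEF, the goblet cell factor, 53.7 against 4.74. MUC1 (66.2 and 31.9 CPM) and MUC13 (7.37 CPM and 0 counts) were higher in HCC827. Of 13 measured, 2 were higher and 7 lower, with a median of -1.96 (-1.98 at the bound). HCC827 had more of several plasma proteins that liver makes. Beside FGB, SERPINA1, alpha-1 antitrypsin, had 92.8 CPM against 4 counts (405-fold, 158 to 1489.9), and the complement regulator CFI (28.0 CPM) faced 1 count in PC-9. FGA and FGG, the other fibrinogen chains, had 1.91 and 4.02 CPM and 0 counts in PC-9. C3, the central complement component, was the reverse, with 10.4 CPM in HCC827 and 793 in PC-9 (76.2-fold lower, 65.2 to 89.7). The complement and acute phase list counted 10 higher and 3 lower of 20 (median of 0.96, 0.97 at the bound). Its median was 3.53 in the ER pair, where C3 was level at 426 CPM in HCC827ER and 359 in PC-9ER. In the GR pair the median had the opposite sign, -0.78, and C3 had 19.1 CPM in HCC827GR and 79.2 in PC-9GR.

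Mesenchymal genes did not move as 1 group, with 8 higher and 9 lower of 20 and a median of -0.24. HCC827 had more of the intermediate filament VIM (93.7 and 5.09 CPM, 18.4-fold, 14.8 to 23.1) and of transcription factors of epithelial-mesenchymal transition, ZEB1 (6.12 and 0.63), SNAI2 (24.7 and 7.84), SNAI1 (14.9 and 4.18) and TWIST2 (14 CPM and 0 counts). PC-9 had more of several matrix genes: COL6A1 had 791 CPM in PC-9 against 41.2 in HCC827 (19.2-fold, 17.7 to 20.8), COL6A2 351 against 26.2, FN1, fibronectin, 536 against 139.7, LOX, the collagen cross-linking oxidase, 50.9 against 2.37, and MMP14, a membrane metalloproteinase, 48.1 against 2.5. Other matrix genes went the other way: TGFBI, a secreted matrix protein, had 943 CPM in HCC827 and 421 in PC-9, and VCAN was at 0 counts in PC-9.

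Of 23 measured integrins, receptors of the matrix, and laminins, 11 were at least 2-fold lower in HCC827 and 3 higher (median of -0.87), against 19.2% and 18.8% of all measured genes. The median was -1.64 in the ER pair and -0.11 in the GR pair. ITGB3 had 1.51 CPM in HCC827 and 42.4 in PC-9, ITGA2, part of a collagen receptor, 38.2 and 539 (14.1-fold lower, 13 to 15.4), ITGB6 31.3 and 142, ITGA6 171 and 632, and ITGA5 142 and 429. ITGB1, the common beta chain, was higher in HCC827. Proteases of the plasminogen system followed no single direction: PLAT had 4.21 CPM in HCC827 and 296 in PC-9, while PLAU had 502 and 178.

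Markers of other cell types were checked, since PC-9 held some of them. CDH5, VE-cadherin, had 146 CPM in PC-9 and 1 count in HCC827, and PECAM1, CD31, 66.4 and 0.395. ESAM had 26.8 CPM in PC-9 and 0.856 in HCC827, and ROBO4 2.06 CPM and 1 count. All 5 measured of 12 listed endothelial genes were at least 2-fold lower in HCC827, as were 19.2% of all measured genes. Of the parental libraries, PC-9 alone reached 1 CPM for CDH5, PECAM1, ESAM and ROBO4. These genes counted as measured through that library, which fixed their direction. Summed levels of the list were 6.98 CPM in HCC827 and 260.0 CPM in PC-9. VWF (0.229 CPM in PC-9) was near 0 in both, TEK and KDR were at 0 counts in PC-9, and CLDN5, ERG and TIE1 were at 0 counts in both. CDH5 and PECAM1 stayed at 31.7 and 21.9 CPM in PC-9ER and were at 0.112 CPM and 0 counts in PC-9GR. Of 12 fibroblast genes, 2 were measured: FBLN1 (0.329 and 297 CPM) and COL1A1 (6.65 and 21.8), while COL1A2, COL3A1, DCN, LUM and PDGFRA had at most 0.229 CPM in either library. Of 14 leukocyte genes, CD68 (54.2 and 24.8) and CSF1R (6.06 and 3.38) were measured, and CD3E and CD14 had at most 1 count in either library. Of the neuroendocrine genes, CHGA had 1 count in PC-9 and 0 in HCC827, against high UCHL1 and NCAM1 (15.6 CPM and 0 counts) in PC-9 and ENO2 (37.3 and 2.18) in HCC827.

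**Figure D2:**
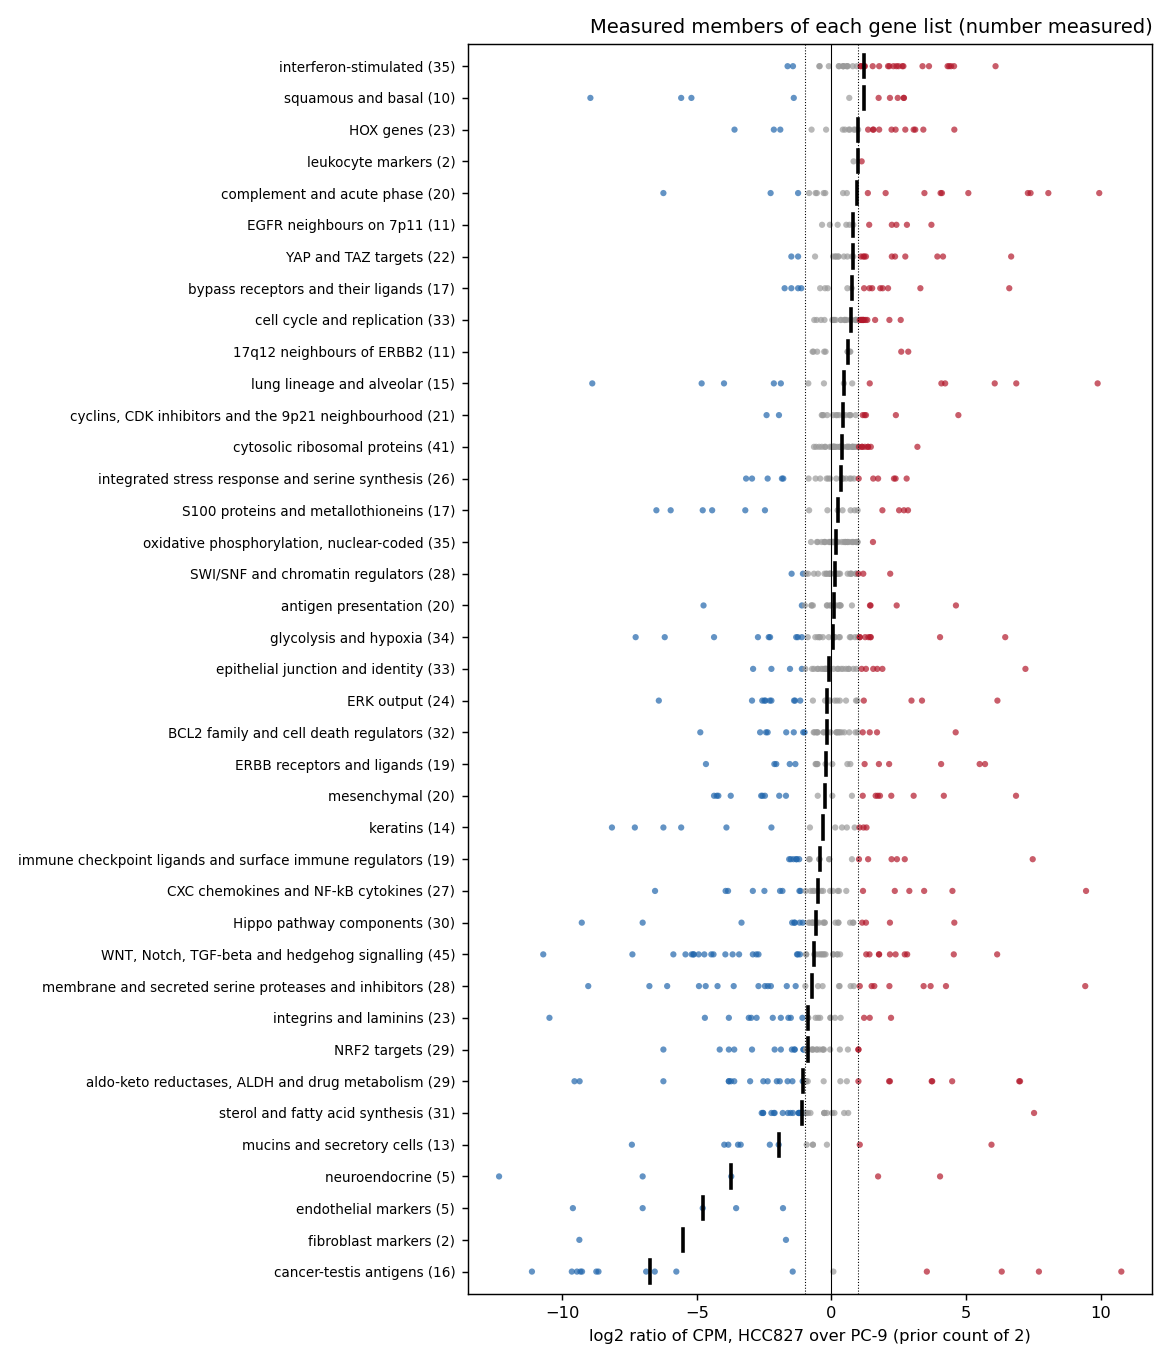
Log2 ratio of CPM (horizontal, HCC827 over PC-9, prior count of 2) for each measured member of the 39 gene lists, with the list's median as a black bar and the number measured in brackets; red members were at least 2-fold higher in HCC827 and blue ones at least 2-fold lower (dotted lines). Interferon-stimulated genes (1.21) and the squamous and basal list (1.2) have the highest medians and cancer-testis antigens the lowest (-6.72), while the cytosolic ribosomal protein and respiratory chain lists lie close to 0.

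Cancer-testis antigens gave the lowest list median, -6.72 (-6.41 at the bound), with 4 higher and 11 lower of 16 measured. These genes are normally expressed in germ cells, and many, MAGEA genes included, are silenced in other tissues by methylation of CG dinucleotides in their promoters. MAGEA4 had 273 CPM in PC-9 and 0 counts in HCC827 (at least 1384-fold lower). MAGEA3 had 316 CPM in PC-9 and 5 counts in HCC827 (959-fold, 411 to 2956), MAGEA6 217 and 2.17 CPM, and MAGEC1 97.4 CPM and 0 counts. MAGEA12 (77.9 CPM), MAGEA2 (75), CSAG1 (51.9) and CSAG3 (48.9) had 0 counts in HCC827. A few genes of the class were higher in HCC827 instead, XAGE1A with 212 CPM, XAGE1B with 25.4 CPM and PRAME with 9.68 CPM, each at 0 counts in PC-9. Levels of MAGEA3 and MAGEA6, of MAGEA2 and MAGEA2B, of CSAG2 and CSAG3 and of XAGE1A and XAGE1B are uncertain within each pair, since the copies are near-identical and reads can be split between them. The PC-9 set was present at similar levels in PC-9ER, with 273 CPM of MAGEA4 and 346 of MAGEA3, and at 0 counts in the library labelled PC-9GR.

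The promoter windows of a few of these genes are printed because the genes had high counts in 1 line and at most 5 counts in the other, in both directions. Each runs from 250 bases before to 50 after the start in RefSeq on GRCh38.p14, so it is 300 bases long, and CG dinucleotides, which read the same on both strands, are in capitals. The windows are chrX:151912224-151912523 (plus strand) for MAGEA4, chrX:152698544-152698843 (plus strand) for MAGEA3, chrX:152733507-152733806 (plus strand) for MAGEA12 and chrX:52495627-52495926 (plus strand) for XAGE1A.
MAGEA4: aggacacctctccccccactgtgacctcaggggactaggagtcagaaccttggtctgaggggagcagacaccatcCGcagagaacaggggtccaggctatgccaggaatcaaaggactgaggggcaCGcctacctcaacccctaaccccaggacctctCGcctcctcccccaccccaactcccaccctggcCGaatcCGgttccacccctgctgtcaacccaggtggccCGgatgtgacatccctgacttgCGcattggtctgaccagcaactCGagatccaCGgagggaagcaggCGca
MAGEA3: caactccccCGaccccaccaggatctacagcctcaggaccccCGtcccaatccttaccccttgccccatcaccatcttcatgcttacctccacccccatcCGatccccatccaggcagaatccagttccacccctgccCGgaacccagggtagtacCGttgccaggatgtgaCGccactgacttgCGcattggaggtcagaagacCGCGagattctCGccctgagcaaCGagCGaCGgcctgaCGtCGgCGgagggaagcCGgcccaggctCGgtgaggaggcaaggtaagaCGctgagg
MAGEA12: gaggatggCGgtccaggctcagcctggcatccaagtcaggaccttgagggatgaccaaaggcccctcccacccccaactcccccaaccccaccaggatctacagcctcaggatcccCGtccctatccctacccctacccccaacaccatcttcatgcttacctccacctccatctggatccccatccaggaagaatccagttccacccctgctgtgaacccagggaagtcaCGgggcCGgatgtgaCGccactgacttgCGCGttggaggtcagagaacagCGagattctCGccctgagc
XAGE1A: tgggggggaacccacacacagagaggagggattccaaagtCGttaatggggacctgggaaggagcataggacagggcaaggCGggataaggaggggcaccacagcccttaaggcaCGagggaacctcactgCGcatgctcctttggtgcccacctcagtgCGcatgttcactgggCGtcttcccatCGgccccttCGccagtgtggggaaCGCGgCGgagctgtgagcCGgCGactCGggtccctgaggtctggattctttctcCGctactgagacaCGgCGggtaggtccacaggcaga
MAGEA4 held 10 CG dinucleotides, MAGEA12 9, MAGEA3 19 and XAGE1A, the gene that was on in HCC827, 17. Across the 13350 genes of the table with a promoter in RefSeq, 99.0% held at least 1, and the median was 24 with quartiles of 13 and 33, so all 4 windows lie below the median and those of MAGEA4 and MAGEA12 below the lower quartile. The windows of MAGEA3 and MAGEA6 were identical at all 300 bases, as were those of XAGE1A and XAGE1B. The window of MAGEA12 shares 135 bases with that of CSAG1 on the opposite strand, and that of MAGEA2 shares 136 bases with that of CSAG3. Each of these head-to-head pairs was on in PC-9 and at 0 counts in HCC827. Methylation was not measured. Promoters were found for 70.7% of the genes on in HCC827 alone and 65.9% of those on in PC-9 alone, too few for a comparison of promoter sequence over the sets, and none is given.

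Interferon-stimulated genes had a list median of 1.21 (1.22 at the bound), with 20 higher and 2 lower of 35, where 18.8% and 19.2% of all measured genes were higher and lower. BST2, tetherin, had 52.4 CPM in HCC827 and 2.29 in PC-9 (22.9-fold, 16.7 to 32.3), IFITM3, which blocks viral entry, 189 and 30.6 (6.19-fold, 5.64 to 6.80), SAMD9 58.9 and 5.55, IFI44L 12.1 CPM and 1 count, ISG15 44.7 and 8.99, and MX1 13.2 and 2.86. GBP2 (13.7 and 37.2) and OASL (0.527 and 1.89) were the members that were lower. Antigen presentation did not follow: HLA-B (56.2 and 50.0), HLA-C (152 and 153) and B2M (343 and 279) were within 2-fold, and ERAP2, a peptide-trimming peptidase, was lower in HCC827 at 5.40 against 148 CPM (27.4-fold, 22 to 34.6). HHLA2, a B7 family ligand, had 31.8 CPM in HCC827 and 1 count in PC-9, and CD274 (PD-L1) 17.4 and 6.70. The interferon median was 1.30 in the ER pair and 0.48 in the GR pair.

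Inflammatory genes of the NF-kB response were mixed, with 6 higher and 9 lower of 27 (median of -0.50). TNFAIP3 (21.4 and 163 CPM), TNFAIP2 (201 and 1125), LTB (0.395 and 48.4), IL1B (0.856 and 13.9) and CSF1 (60.1 and 212) were lower in HCC827. CXCL5, CXCL2 (9.08 and 0.286), IL6 (11 and 1.37) and CSF2 (8.10 and 1.49) were higher. NFKBIA, the inhibitor that NF-kB induces, was level at 77.0 and 99.9. Calgranulins were lower in HCC827, S100A9 with 3.69 against 344 CPM (93.3-fold, 71.8 to 124) and S100A8 with 0 counts against 2.52 CPM, whereas the metallothioneins MT2A (1274 and 224) and MT1X (38.0 and 10.2), which bind zinc and copper, were higher.

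Enzymes that clear reactive carbonyls and drugs included 8 genes higher and 15 lower in HCC827 of 29 measured (median of -1.07, -1.08 at the bound), against 18.8% higher and 19.2% lower over all measured genes. The median was -0.87 in the ER pair and -2.21 in the GR pair. Besides AKR1B1 (14-fold lower, 13.6 to 14.5), AKR1B10 had 30.6 CPM in HCC827 and 432 in PC-9 (14.1-fold lower, 12.8 to 15.5), AKR1C2 0.724 and 63.9, and ALDH3A1, an aldehyde dehydrogenase, 0 counts and 90.8 CPM. UGT1A6, a glucuronosyltransferase, had 1 count and 122 CPM, and the transporter ABCG2 6.91 and 40.5. The AKR1C and UGT1A genes are close relatives or share exons, so their split is uncertain. GSTT1, a glutathione transferase, and ABCB1, the drug efflux pump P-glycoprotein, were on in HCC827 alone, with 15.5 and 15.3 CPM against 0 counts in PC-9, and both were at 0 counts in PC-9ER and PC-9GR too. NRF2 targets, which overlap with this list, had 1 higher and 12 lower of 29 (median of -0.88, -0.89 at the bound), among them GPX2 (4.34 and 79.1 CPM), SLC7A11, the cystine importer (14 and 109) and GCLC (27.7 and 120). NQO1 (415 and 674) and TXNRD1 (767 and 1126) lay within 2-fold, and NFE2L2, which codes NRF2, had 156 and 102.

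Of 31 sterol and fatty acid synthesis genes, 18 were lower in HCC827 and 1 higher, with a median of -1.08. Over all measured genes 19.2% were lower and 18.8% higher. HMGCS1, an early enzyme of the mevalonate pathway, had 152 CPM against 919 (6.03-fold, 5.78 to 6.31), SQLE, squalene epoxidase, 77.3 against 451 (5.83-fold, 5.48 to 6.20), SCD, stearoyl-CoA desaturase, 755 against 3318, and SREBF2, the factor that drives these genes, 129 against 557. STARD4, a cholesterol transporter and the exception, had 22.4 CPM in HCC827 and 0 counts in PC-9 (at least 130.3-fold higher). In the ER pair the list's median was 0.19, with SCD at -0.12 and SREBF2 at -0.15 while HMGCS1 stayed at -2.54. In the GR pair the median was -1.24, with SCD at -4.14, SREBF2 at -0.11 and HMGCS1 at -1.69.

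Glycolysis and the hypoxia response gave a median of 0.07, with 8 higher and 9 lower of 34. The hypoxia genes CA9 (1 count and 13.6 CPM), NDRG1 (73.4 and 357) and SLC2A3, a glucose transporter (1 count and 28.8 CPM), were lower in HCC827, and ANGPTL4 (15.6 CPM and 1 count) was higher. PHGDH, the first enzyme of serine synthesis, had 39.3 CPM in HCC827 and 354 in PC-9 (9.01-fold lower, 8.28 to 9.81). SLC7A5, a leucine transporter, had 959.9 and 289.6. Respiratory chain subunits were nearly equal, with 34 of 35 within 2-fold and a median of 0.18. Cytosolic ribosomal proteins had 33 of 41 within 2-fold and 8 higher (median of 0.39), led by RPL7.

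CDK4, the G1 cyclin-dependent kinase, had 3039.8 CPM in HCC827 and 116 in PC-9 (26.2-fold, 25.1 to 27.4). Its level was 4754 CPM in HCC827ER and 2726 in HCC827GR, and 167 in PC-9ER and 175 in PC-9GR. The lines of each origin did not overlap, and how many of all genes separate them in this way was not counted. CDK6, a relative of CDK4, had 122 and 54.3, and CCND1, cyclin D1, 412 and 357. The CDK inhibitors CDKN1A (8.89 and 47.7) and CDKN2B (17.3 and 67.3) were lower in HCC827, and CDKN2A had 290 and 201. Cell cycle genes were higher in HCC827 in 12 of 33 and lower in none, with a median of 0.74. Over all measured genes 18.8% were higher and 19.2% lower. AURKB had 145 and 24.3 CPM, CDC20 570.0 and 128, BUB1 176 and 57.2 and TOP2A 579 and 231. MKI67 (359 and 527) and MCM5 (115 and 180) were within 2-fold on the other side. The sign of this list was not seen in the ER pair, where its median was -1.71, the GR pair had 0.12, and the labels do not state the density at harvest.

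Among regulators of cell death, BCL2 had 2 counts in HCC827 and 7.33 CPM in PC-9 (55.7-fold lower, 15.1 to 464). BBC3 (PUMA; 1.18 and 6.93 CPM), HRK (3 counts and 1.89 CPM), BID (11.3 and 58.7) and BMF (14 and 37.1), all of which promote apoptosis, were lower too. PMAIP1 (NOXA; 60.5 and 22.6) and BIK (12.4 and 3.78) were higher. BCL2L11, which codes BIM, a mediator of death under EGFR inhibition, was level at 45.2 and 39.8 CPM. MCL1 (312 and 159), BCL2L1 (289 and 208) and BAX (52.1 and 64.2) were within 2-fold. The list held 4 higher and 7 lower of 32, with a median of -0.17, where 18.8% and 19.2% of all measured genes were higher and lower.

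In developmental signalling, several genes of the WNT pathway were higher in PC-9. SFRP1 and LEF1 (7.04 CPM) had 0 counts in HCC827, as did the feedback genes AXIN2 (4.12) and NKD1 (3.61), and WNT7A had 3.42 CPM against 73.7. NOTCH3 had 8.23 against 220.1, and the activin subunits INHBA 3 counts against 53.5 CPM and INHBB 4.34 against 191. The ID genes, targets of BMP signalling, were higher in HCC827: ID2 had 29 and 0.286 CPM (101-fold, 43.0 to 313), ID1 105 and 23.2 and ID3 59.0 and 22.2. The list counted 10 higher and 20 lower of 45 (median of -0.64). Of the HOX genes, which record body position, 11 were higher in HCC827 and 3 lower of 23 (median of 0.99, 1.01 at the bound), against 18.8% and 19.2% of all measured genes. The median was 0.45 in the ER pair and had the opposite sign, -0.79, in the GR pair. Among the higher genes were HOXA10 (29.8 and 2.69) and HOXB13 (2.76 CPM and 0 counts). HOXC13 (2.90 and 36.5) was higher in PC-9. Chromatin regulators were nearly level, with 24 of 28 within 2-fold, and SMARCA2, a catalytic subunit of SWI/SNF, differed most with 45.4 and 9.90 CPM.

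Differences were also read along the chromosomes, with positions from GENCODE 29 on GRCh38. Medians by chromosome ran from -0.58 (chromosome 22) to 0.40 (chromosome 12). In 12326 overlapping runs of 20 neighbouring measured genes, the median log2 ratio had a 5th percentile of -0.88, a median of 0.03 and a 95th percentile of 0.86. Copy number was not measured, so dosage and transcription cannot be told apart.

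The genes next to EGFR were high with it. SEC61G, a translocon subunit that starts at 54752250, had 1851 CPM in HCC827 and 142 in PC-9 (13.1-fold, 12.5 to 13.6), LANCL2 521 and 74.9 (6.96-fold, 6.56 to 7.38) and VOPP1 2151 and 405 (5.31-fold, 5.18 to 5.45). MRPS17, further along, had 184 and 69.4, while NIPSNAP2 (90.1 and 115), ZNF713 (7.24 and 7.56) and SUMF2 (401 and 342) were within 2-fold. Of 11 measured neighbours, 5 were higher and 0 lower, with a median of 0.81. Every measured gene from SEC61G to VOPP1 was thus higher, and past them PHKG1 (2.90 and 0.515) was higher along with MRPS17. On the near side of SEC61G, COBL (30.3 and 50.6) and GRB10 (47.3 and 96.3) were not raised. The run of 20 genes around EGFR, IGFBP3 to PHKG1, had a median of 0.63, between the 5th and 95th percentiles of all runs. Its median was 0.08 in the ER pair and -0.11 in the GR pair. COBL and SEC61G start at 5.10 and 8.84 Mb in that run with no measured gene between, so the near edge is not located. SEC61G and VOPP1 stayed high in HCC827ER, at 1924 and 1637 CPM, and had 115 and 216 CPM in HCC827GR. Around ERBB2 on chromosome 17, by contrast, 9 of 11 genes were within 2-fold.

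The highest run apart from the protocadherins was on chromosome 8, 67062426 to 75566843, from CSPP1 to HNF4G, with a median of 3.15 and 16 of 20 genes at least 2-fold higher. ELOC, elongin C, had 417 CPM against 25.5 (16.4-fold, 14.9 to 18.1), RPL7 4459 against 489 (9.12-fold, 8.92 to 9.33), TMEM70 147 against 11.8 and UBE2W 139 against 12.1. LY96, the partner of TLR4, had 14.5 CPM and 0 counts in PC-9, and EYA1 (0.922 and 5.78) was the gene that was lower. RPL7 has many processed copies, so its level is uncertain. The median of the run was 2.0 in the ER pair and 1.98 in the GR pair, so it was seen in each pair of libraries. The highest median of all, 3.87, was in the protocadherin cluster on chromosome 5 (140670794 to 141512981), with 14 genes higher and 0 lower. Its median was 2.84 in the ER pair and 0.06 in the GR pair, so it was not seen in the latter. There the levels in HCC827 were low, such as 8.03 CPM of PCDHB2 and 4.54 of PCDHGA8, against 0 counts in PC-9, and the overlapping PCDHA and PCDHG genes share exons and cannot be counted as separate.

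Runs that were low in HCC827 included 2 clusters of related genes. The lowest, with a median of -6.16, was the MAGEA9 to MAGEA6 stretch of chromosome X (149781930 to 152769747), where 12 of 20 genes were lower and 2, HMGB3 (115 and 27.1 CPM) and GABRE (50.9 and 18.3), were higher. Other genes of the run, such as MTMR1 (74.8 and 81.5 CPM), VMA21 (95.9 and 99.6) and CD99L2 (20.7 and 20.7), were level, and the lower genes were the MAGEA and CSAG genes, PASD1 (0 counts and 55.2 CPM), another germline gene, and GABRA3 (1.32 and 47.9). The median of the run was -7.2 in the ER pair and 0 in the GR pair. On chromosome 22 (38705723 to 39689737) the APOBEC3 cytidine deaminases and their neighbours had a median of -2.64, with 17 of 20 lower and 0 higher. APOBEC3C had 22.6 CPM in HCC827 and 665 in PC-9 (29.4-fold, 26.4 to 32.8), APOBEC3B, a source of mutations in cancers, 22 and 104, and APOBEC3F 3.55 and 55.6. PDGFB, a growth factor chain (24.8 and 227), CBX7 (6.91 and 63.8) and SUN2 (51.4 and 299) were lower alongside them. The median there was -1.84 in the ER pair and -0.26 in the GR pair. On chromosome 14, NPC2 to FLVCR2 (74476192 to 75663214) had a median of -1.71 with 15 of 20 lower, among them LTBP2 (7.90 and 240.3), TMED10 (109 and 595) and BATF (0 counts and 27.4 CPM), and FOS was the gene that was higher. Its median was -1.65 in the ER pair and -0.67 in the GR pair. A further high run on chromosome X, ARMCX3 to NRK (101622797 to 105958610), had a median of 2.21 and included BEX3 (206 and 23.9), with a median of 0.94 in the ER pair and -0.03 in the GR pair.

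**Figure D3:**
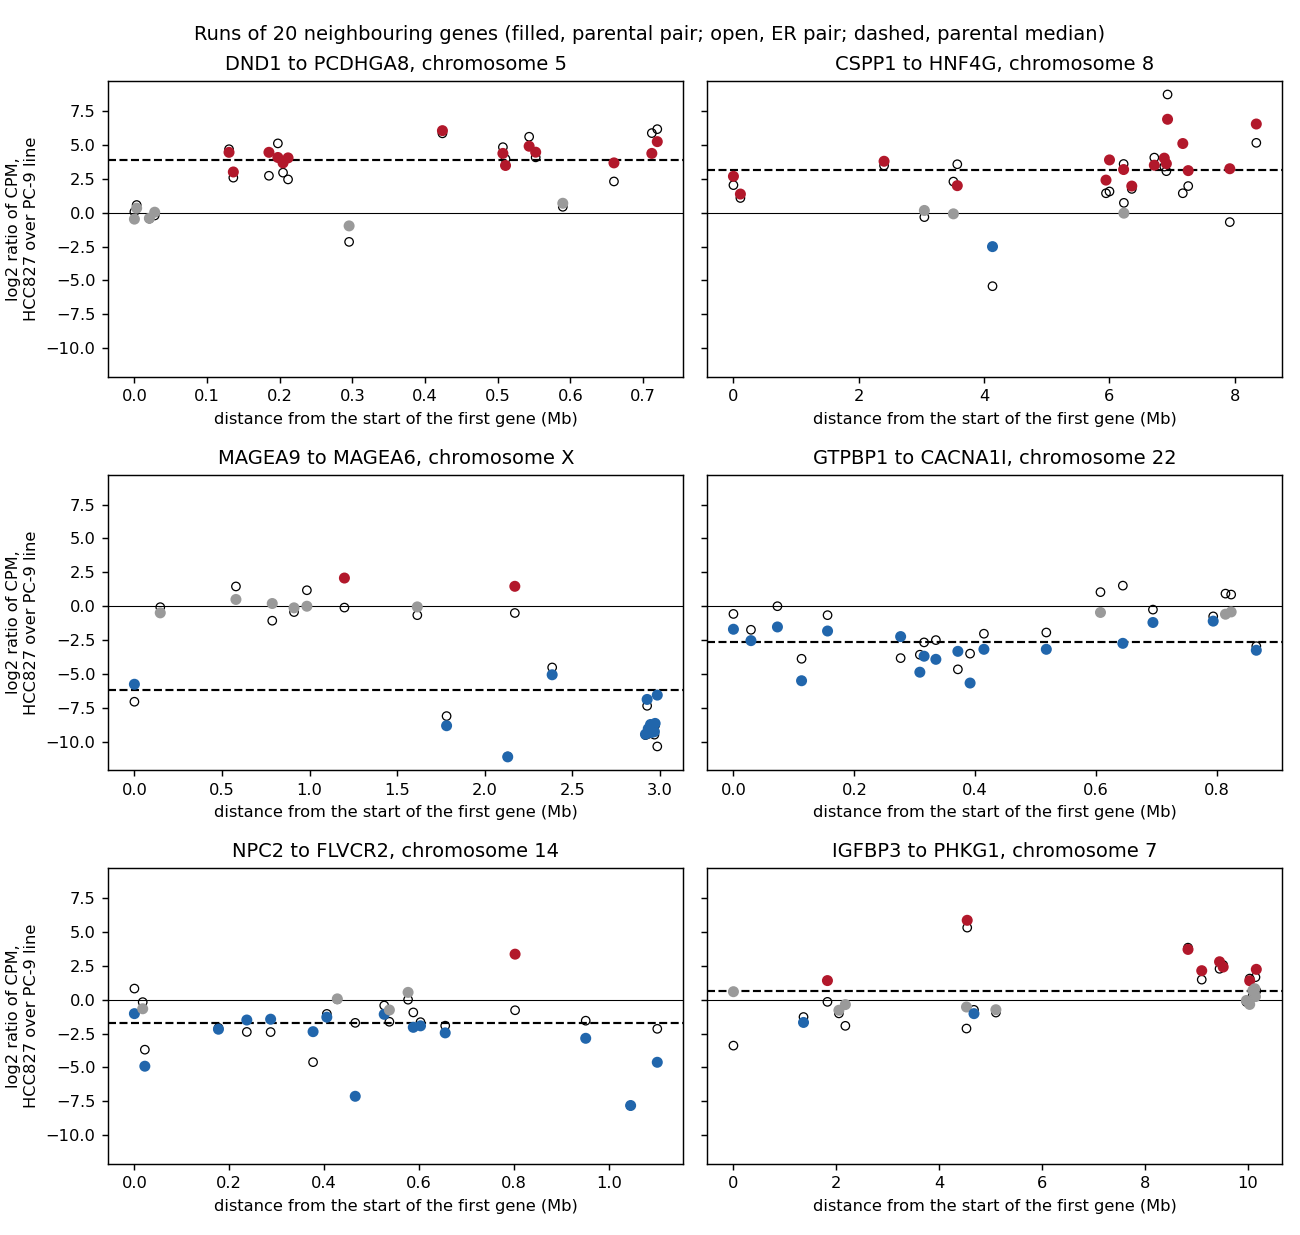
Log2 ratio of CPM (vertical, HCC827 line over PC-9 line) for runs of 20 neighbouring measured genes, by distance in Mb from the start of the first gene; filled points are the parental pair (red at least 2-fold higher in HCC827, blue at least 2-fold lower), open circles the ER pair and the dashed line the parental median. The chromosome 8 run has a median of 3.15 and the APOBEC3 run on chromosome 22 one of -2.64, and in the MAGEA run on chromosome X level genes lie between germline genes such as MAGEA4 (-11.12).

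Most parental differences of at least 2-fold were seen again in the ER pair, and fewer in the GR pair. In the ER pair, 61.7% of the 2412 genes higher in HCC827 were again at least 2-fold higher, against 20.6% of all 12856 genes tested, and 64.9% of the 2472 lower genes listed in both tables were again lower, against 23.7%. The direction was the same in 83.6% and 87.3%, and opposite by 2-fold in 5.02% and 3.60%. In the GR pair the shares were 38.3% against a background of 17.9%, and 40.2% against 17.6%, with 13.5% and 12.1% opposite by 2-fold. The gap between the pairs cannot be told apart from the state of the library labelled PC-9GR or from the tables, since the ER lines were deposited in a table of their own.

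Of the 116 genes on in HCC827 alone, 83 were still on in HCC827ER and 98 still off in PC-9ER, and none was on in PC-9ER. In the library labelled PC-9GR, 61 of them were on, NNMT (111 CPM), UBE2M, BICC1 (241 CPM) and CXCL5 (282 CPM) included, and 24 were still off. Of the 135 genes on in PC-9 alone, 96 were on in PC-9ER and 111 off in HCC827ER, and 2 were on in HCC827ER, whereas 32 were on in the library labelled PC-9GR. How many of all genes were on or off in each derived library was not counted, so these numbers stand without a background. SULF2 (545 CPM in PC-9ER and 46.8 in PC-9GR) and UCHL1 (1279 and 721) had 0 counts in all 3 HCC827 lines. MAL had 571 CPM in PC-9ER and 0 counts in PC-9GR. BICC1 had 203 CPM in HCC827ER and 215 in HCC827GR. The plot of 16 genes by library shows the groups by line of origin and the genes for which PC-9GR sits with the HCC827 lines.

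**Figure D4:**
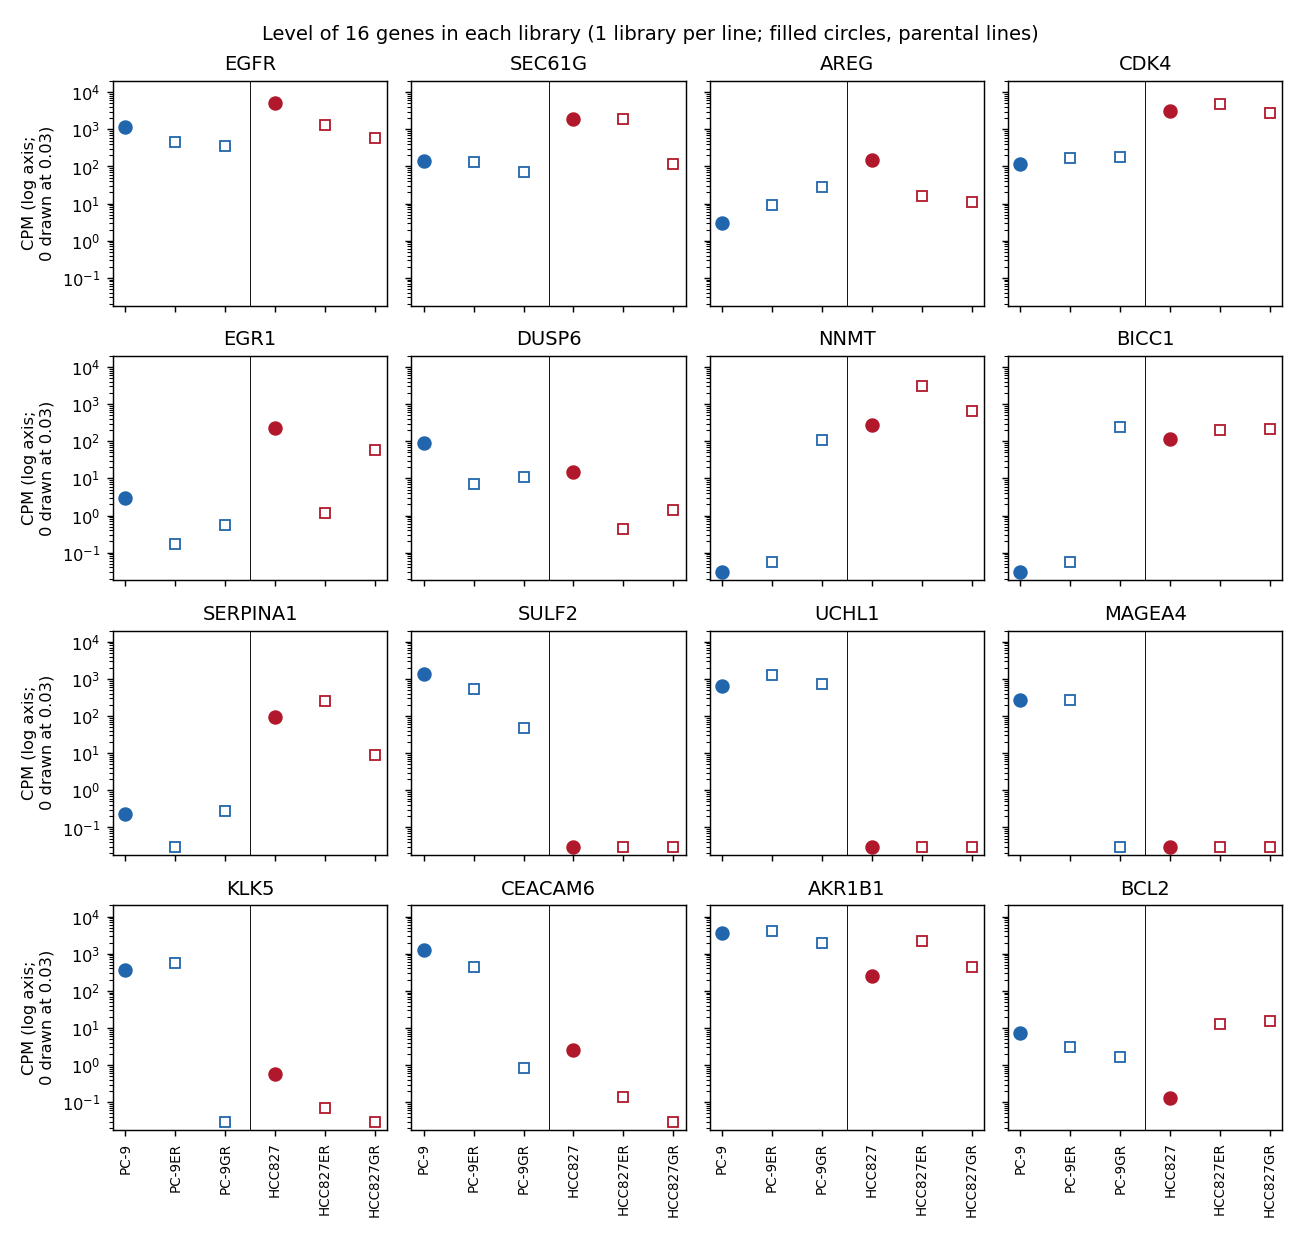
Level in CPM (log axis, 0 drawn at 0.03) of 16 genes in each of the 6 libraries, 1 per line; filled circles are the parental lines, open squares the derived lines, blue those from PC-9 and red those from HCC827. CDK4 and UCHL1 separate the lines by origin, NNMT and BICC1 are high in PC-9GR as in the HCC827 lines, and BCL2 is lower in parental HCC827 (0.132 CPM) than in any other library.

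**Figure D5:**
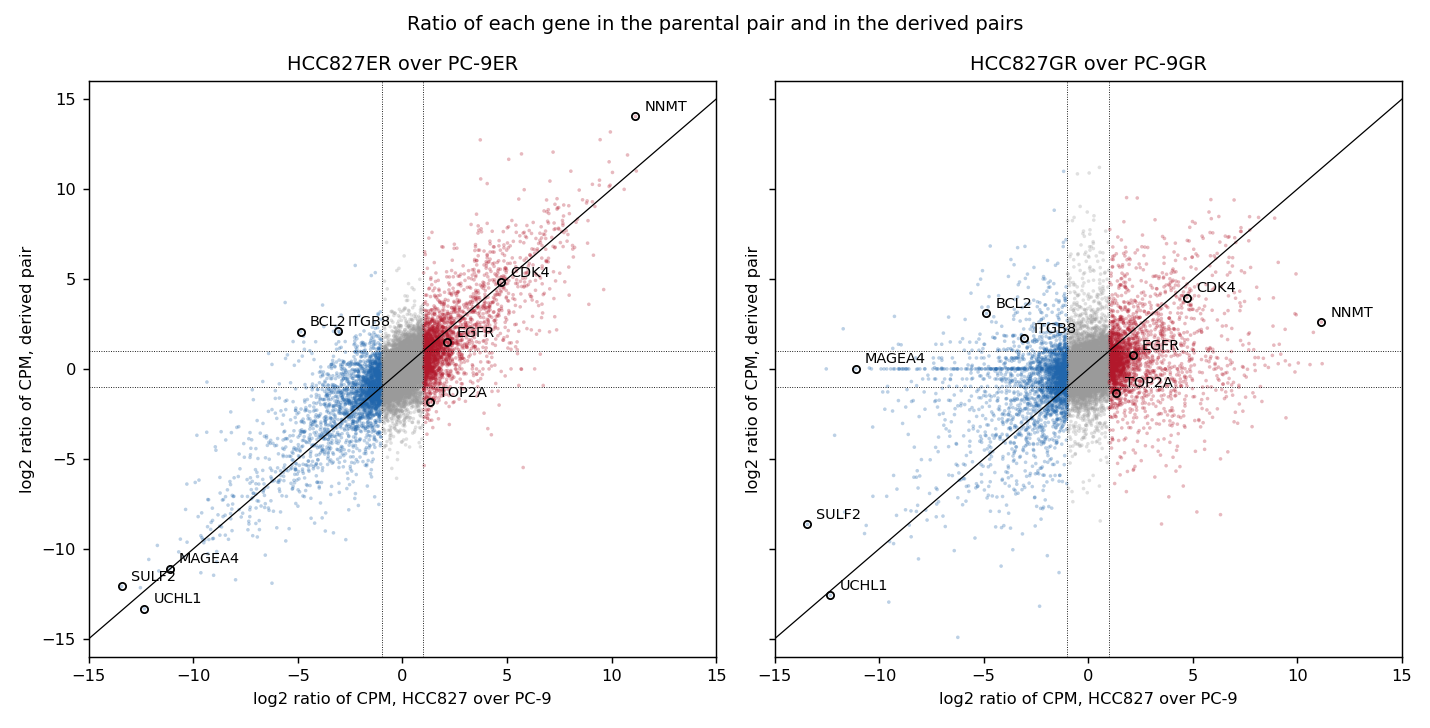
Log2 ratio of CPM of each measured gene in the parental pair (horizontal) and in the ER pair (left panel, vertical) or the GR pair (right panel, vertical); the solid line marks equal ratios, the dotted lines 2-fold, red and blue the genes at least 2-fold higher or lower in parental HCC827. CDK4 (4.83 and 3.96) and UCHL1 (-13.33 and -12.58) stay near the line in both panels, and BCL2, ITGB8 and TOP2A lie on the opposite side of 0.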

How the data were processed

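Total RNA of 6 cultures, 1 per line, was sequenced, and the 2 parental libraries were compared. The authors deposited expected counts per gene in 2 tables, per the file headers, of which the first holds both parental lines. Per the submitters' processing notes, HISAT2 2.0.4, Cuffdiff and GRCh38.p13 were used, with the counter not given in the sources used here. Values that were not whole made up 14.0% in PC-9 and 13.3% in HCC827, and all were rounded. Y-linked genes and XIST, 11 in the first table, were left out, and 16843 remained. CPM used TMM factors of edgeR 4.0.16 (R 4.3.3) from all 6 libraries over 15998 genes listed in both tables, and DESeq2 1.42.0 gave an alternative scaling. Ratios had a prior count of 2, a gene counted as different at 2-fold with at least 1 CPM in the higher library, and intervals were exact (Clopper-Pearson) at 95%. With 1 library per line, no test was possible. The calculation was tested on simulated data.

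The members and the 39 gene lists were chosen with earlier results of these data known. The named genes were 10 fixed genes, the 15 highest and lowest ratios at 20 CPM or more, up to 4 members per list that passed 2-fold, the 8 most counted genes of each line and genes of the runs; other genes named were chosen after their values were seen, to describe their list. Positions came from GENCODE 29 (16524 genes), and promoters from RefSeq matched 13350 genes (79.3%) by gene ID. Values of some list members are not reported here.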

Additional observations from a re-analysis of the deposited data

Results flagged for a closer look

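Of 206 named genes, 3 differed by at least 2-fold one way in the parental pair and the other way in both derived pairs. Over all genes higher or lower in parental HCC827, 5.02% and 3.60% were opposite by 2-fold in the ER pair. In the GR pair 13.5% and 12.1% were. The share opposite in both pairs was not counted. The GR pair includes the library labelled PC-9GR, which correlated better with HCC827 than with PC-9. Each value rests on single libraries, and the difference between the pairs was not tested. BCL2, an inhibitor of apoptosis, had a log2 ratio of HCC827 over PC-9 of -4.87, against 2.06 in the ER pair and 3.08 in the GR pair. Its level was 0.132 CPM (2 counts) in HCC827 and 13 and 15 CPM in HCC827ER and HCC827GR. In PC-9, PC-9ER and PC-9GR it was 7.33, 3.02 and 1.68 CPM. ITGB8, an integrin chain that frees latent TGF-beta, had a log2 ratio of -3.07, against 2.10 and 1.71. Its level was 33.4 CPM in PC-9, 3.81 in PC-9ER and 1.45 in PC-9GR, and 3.88, 16.8 and 5.01 CPM in HCC827, HCC827ER and HCC827GR. TOP2A, a topoisomerase of dividing cells, had a log2 ratio of 1.33, against -1.84 and -1.32. It had 579 CPM in HCC827 and 57.6 and 285 CPM in HCC827ER and HCC827GR, beside 231, 207 and 714 CPM in PC-9, PC-9ER and PC-9GR.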

How the results depend on the processing

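Replicates could not be left out, since each line has 1 library. No paired analysis was possible because the lines carry no replicate numbers and the result comes from no test. At 4-fold in place of 2-fold, 1015 genes were higher and 1145 lower in HCC827. With on set at 5 or 20 CPM, 181 or 59 genes were on in HCC827 alone, and with off set at 0 counts, 80 were on in PC-9 alone. With the GR pair in place of the ER pair, 38.3% and 40.2% of the higher and lower genes were seen again. The other settings (scaling, prior count, minimum level, shared genes) left these counts within 1.5 times, from 1778 to 3169 higher and 2033 to 2932 lower. Total counts, DESeq2 and TMM of the parental libraries moved the median of all genes by 0.016, -0.032 and -0.016 (log2). None of 206 named genes changed direction in 5 settings, and 1 of the 188 at 2-fold, EEF1A1, fell under it. Counted over each list and setting, 186 list medians moved little and 9 more. Medians of runs depended on run length. Counted over each run and length (10 or 40 genes), 13 of 14 moved. Depth limits genes near the floors of 0.172 and 0.198 CPM, and no value measures the spread between cultures.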
